A study of Mus musculus with 6 samples.

Results

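Expression of 10 genes of MHC (major histocompatibility complex) class II antigen presentation was examined by bulk RNA-seq of mouse dorsal root ganglion (DRG) and neurofibroma tissue. The genes were H2-Aa, H2-Ab1 and H2-Eb1, H2-DMa, H2-DMb1 and H2-DMb2, H2-Oa, Cd74, Ctss and Ciita. They were taken by symbol, as genes of this pathway, with no threshold on their values. All 10 were among the 24062 genes counted, and all 10 were among the 15652 genes that passed the filter on low counts and were tested. H2-DMb2 and H2-Oa passed that filter mainly through the genotype in which they were high.

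MHC class II molecules are pairs of an alpha and a beta chain that carry peptides from ingested proteins to the cell surface, where CD4+ T cells read them. Dendritic cells, macrophages and B cells make them at a high level, and interferon gamma can induce them in other cells. The chains are assembled in the endoplasmic reticulum on the invariant chain, which is cut down in endosomes by proteases, after which the H2-M molecule loads the peptide. In C57BL/6 mice the alpha chain of the H2-E pair is not made.

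The libraries were 3 from Nf1fl/fl;DhhCre mice, with the tissue labelled as DRG, and 3 labelled Rx1flfl;Rx3fl/fl;DhhCre, with the tissue labelled as neurofibroma tumor. The methods of the study give the second genotype as Runx1fl/fl;Runx3fl/fl;Nf1fl/fl;DhhCre and the tissue of both genotypes as DRG/tumors, so that floxed Nf1 and DhhCre were shared by both groups, and the second group is called double knockout here. All mice were of the strain background C57BL/6-I129, and their age is not given in the sources used here. Cre driven by the Dhh promoter acts in the Schwann cell (SC) lineage, so that leukocytes and other cells of the tissue keep intact copies of the floxed genes. Genotype and labelled tissue cannot be told apart in this design.

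The libraries held 12439296 to 16682194 counts, and levels are given as CPM, the count of a gene relative to all counts of its library, scaled by TMM (trimmed mean of M values). Of the floxed genes, Runx3 was at 15.1 to 29.9 CPM in Nf1fl/fl;DhhCre and at 10.3 to 13.6 CPM in double knockout libraries (adjusted p = 0.104), and Nf1 differed by -0.06 on the log2 scale. Runx1 was at 131, 141 and 172 CPM in Nf1fl/fl;DhhCre replicates 1 to 3, and the double knockout libraries held 84.0, 78.9 and 185 CPM (adjusted p = 0.370). Cells outside the SC lineage keep Runx1, so its bulk level does not test the genotype label. In double knockout replicate 3 Runx1 was not lower. By its label that library is also the only one of a second sequencing run, although the mouse number in the deposited data would place double knockout replicate 2 there. Skeletal muscle genes summed to 1551 CPM in Nf1fl/fl;DhhCre replicate 2 and to 11010 CPM in double knockout replicate 2, and to at most 60.8 CPM in the other libraries. Each library was therefore left out in turn. Adjusted p-values come from limma-voom and were adjusted over all genes tested by the Benjamini-Hochberg method. A gene was called when this value was below 0.05 and its change was larger than 2-fold, the rule that the study states. The labels do not say that each library is a separate mouse beyond the mouse number in its title, so the p-values measure the spread between these libraries.

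Transcripts of the class II chains that present peptide, of the invariant chain, of Ctss and of Ciita fell in double knockout libraries by 5.71-fold to 12.2-fold, whereas those of H2-DMa and H2-DMb1 had fitted folds of 1.75 and 1.78 by limma-voom and did not pass the test. Of the 10 genes, 6 were called lower and 0 higher, while 5.36% of all genes tested were called lower. All 10 had a negative log2 fold change, against 48.9% of the genes tested. In 7 of the 10, with H2-Oa among them on few counts, every double knockout library was below every Nf1fl/fl;DhhCre library, against 20.5% of the genes tested. The median log2 fold change was -3.05 over the 10 genes and 0.015 over all genes tested. These values include H2-DMb2 and H2-Oa, which passed the filter mainly through the genotype in which they were high. Nothing is read from the direction of these genes. The 6 genes called were all among the 7 without overlap. The 10 genes made 0.576, 0.222 and 1.03% of all counts in Nf1fl/fl;DhhCre replicates 1 to 3 and 0.0904, 0.0246 and 0.0908% in double knockout replicates 1 to 3. In bulk tissue, fewer cells that carry these transcripts and less transcript per cell cannot be told apart.

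**Figure D1:**
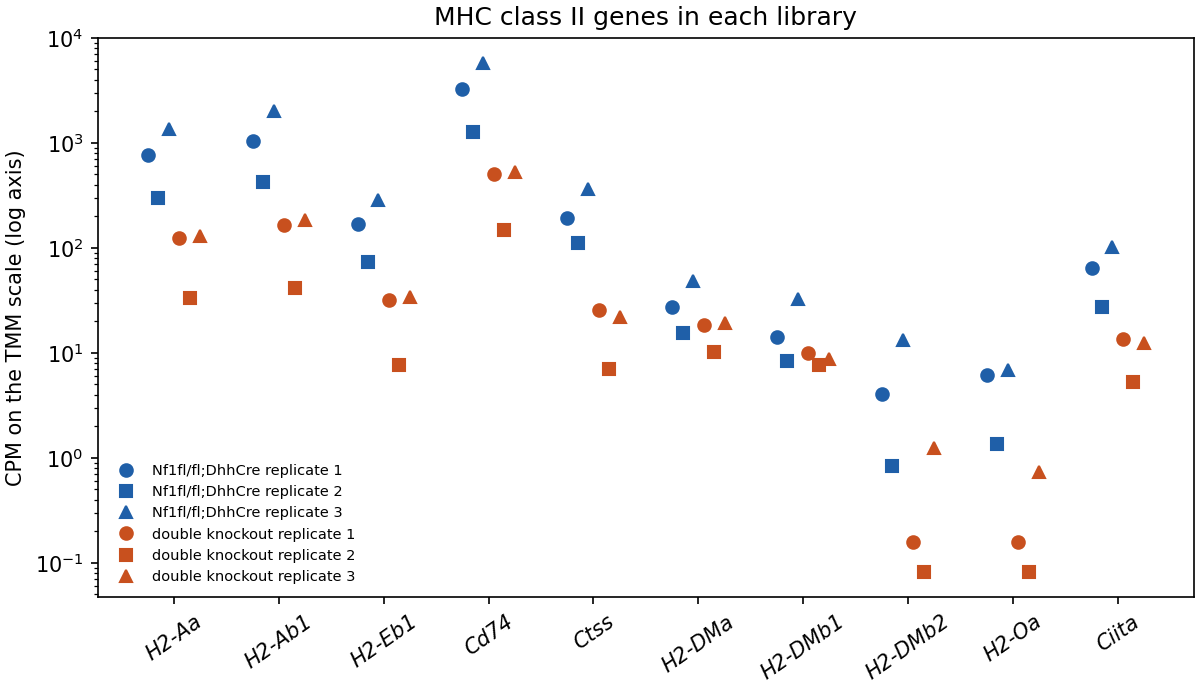
The plot of class II genes by library shows the level of each of the 10 genes (CPM on the TMM scale, log axis) as 1 point per library, blue for Nf1fl/fl;DhhCre and orange for double knockout, with a marker shape per replicate number, which does not pair mice. Cd74 ran from 147 to 5737 CPM over the 6 libraries, the squares (replicate 2) were the lowest point of each genotype for all 10 genes, and the genotypes overlapped for H2-DMa, H2-DMb1 and H2-DMb2.

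H2-Aa and H2-Ab1 encode the alpha and beta chains of H2-A, the main class II molecule of these mice. H2-Aa (chromosome 17, 34282744 to 34287823 of GRCm38, minus strand) was at 767, 296 and 1366 CPM in Nf1fl/fl;DhhCre replicates 1 to 3 and at 125, 33.0 and 129 CPM in double knockout replicates 1 to 3. The lowest Nf1fl/fl;DhhCre library was above the highest double knockout library, although the libraries within each genotype differed several-fold. The log2 fold change came to -3.04, with an SE of 0.69, a 95% interval from -4.66 to -1.42 and an adjusted p of 0.0261 (limma-voom). H2-Ab1 (chromosome 17, 34257689 to 34269419, plus strand) was at 1050, 420.1 and 2001 CPM in Nf1fl/fl;DhhCre and at 167, 41.2 and 185 CPM in double knockout libraries. Its libraries kept the order of those of H2-Aa, from Nf1fl/fl;DhhCre replicate 3 down to double knockout replicate 2. H2-Ab1 fell by 3.13 on the log2 scale with an SE of 0.72 (limma-voom, adjusted p = 0.0266).

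H2-Eb1, the beta chain of the H2-E pair (chromosome 17, 34305867 to 34316674, plus strand), was at 170.4, 74.0 and 287 CPM in Nf1fl/fl;DhhCre and at 31.7, 7.73 and 34.1 CPM in double knockout libraries. The genotypes did not overlap, and its log2 fold change of -2.88 (adjusted p = 0.0306 from limma-voom) lay close to those of both H2-A chains. Of the further chains, H2-Ea-ps, the alpha chain gene of H2-E, had 0 counts in all 6 libraries. H2-Eb2, a second E beta gene, was below the filter and was not tested. It held 31 counts over the Nf1fl/fl;DhhCre libraries and 0 over the double knockout libraries, at least 8.8-fold lower when 3 counts are set as the floor of the pooled double knockout libraries.

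Cd74 encodes the invariant chain, on which class II chains assemble. Cd74 (chromosome 18, 60803848 to 60812652, plus strand) was at 3252, 1255 and 5737 CPM in Nf1fl/fl;DhhCre and at 505, 147 and 533 CPM in double knockout libraries, 3415 ± 2246 CPM against 395 ± 215 CPM (SD, n = 3 each). The groups did not overlap. Cd74 fell by 3.06 on the log2 scale with an SE of 0.66 (limma-voom, adjusted p = 0.0226). Per kilobase of annotated exon Cd74 was also the most abundant of the 10 genes in both genotypes, at a mean of 2034 and 235 CPM per kilobase, followed by H2-Ab1 (451 and 51.0), H2-Aa (213 and 25.2), Ctss (164 and 13.5) and H2-Eb1 (91.1 and 12.6). The other members were at or below 10.9 CPM per kilobase on average in either genotype. Cd74 was above H2-Ab1, and H2-Ab1 above H2-Aa, in each of the 6 libraries. The place of Ctss was not the same in all libraries. In Nf1fl/fl;DhhCre replicate 2 Ctss was above H2-Aa (82.1 against 77.8 CPM per kilobase). In double knockout replicate 3 it was below H2-Eb1 (16.3 against 17.5 CPM per kilobase).

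Ctss encodes cathepsin S, the protease that makes the last cuts in the invariant chain in antigen-presenting cells. Ctss (chromosome 3, 95526786 to 95556403, plus strand) was at 191, 112 and 364 CPM in Nf1fl/fl;DhhCre and at 25.6, 7.07 and 22.2 CPM in double knockout libraries. The lowest Nf1fl/fl;DhhCre library was thus more than 4 times the highest double knockout library. It fell by 3.61 on the log2 scale with an SE of 0.62, and its adjusted p of 0.0134 (limma-voom) was the lowest of the 10 genes.

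Ciita encodes the coactivator that class II promoters require, which binds no DNA by itself. Ciita (chromosome 16, 10480059 to 10528418, plus strand) was at 63.6, 27.3 and 103 CPM in Nf1fl/fl;DhhCre and at 13.6, 5.26 and 12.4 CPM in double knockout libraries. The genotypes did not overlap, and Ciita fell by 2.51 on the log2 scale with an SE of 0.64 (limma-voom, adjusted p = 0.0355).

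H2-DMa and H2-DMb1 encode chains of H2-M, the chaperone that takes the last piece of invariant chain out of the groove and loads peptide. H2-DMa (chromosome 17, 34119541 to 34139101, plus strand) was at 27.6, 15.6 and 48.0 CPM in Nf1fl/fl;DhhCre and at 18.5, 10.2 and 19.2 CPM in double knockout libraries. Nf1fl/fl;DhhCre replicate 2 lay below 2 of the double knockout libraries. The log2 fold change was -0.81 (95% interval -1.89 to 0.27, adjusted p = 0.253 from limma-voom). H2-DMb1 (chromosome 17, 34153072 to 34160230, plus strand) was at 14.3, 8.28 and 32.5 CPM in Nf1fl/fl;DhhCre and at 9.88, 7.65 and 8.78 CPM in double knockout libraries. Here too the genotypes overlapped through Nf1fl/fl;DhhCre replicate 2, and the log2 fold change was -0.83 (95% interval -2.07 to 0.41, adjusted p = 0.306 from limma-voom). edgeR and DESeq2 put H2-DMb1 at -1.07 and -1.08, past 2-fold, and did not call it either. Exons of H2-DMa share bases with Brd2 on the other strand, and whether reads were counted by strand is not given in the sources used here, so reads of the 2 genes may not have been told apart. The same limit holds for Ciita, whose exons share bases with Dexi, and for H2-Oa, whose exons share bases with BC051537, each on the other strand. Brd2, a bromodomain protein gene that is no class II gene, was at 211 to 238 CPM in Nf1fl/fl;DhhCre and at 188 to 221 CPM in double knockout libraries, and its part in the H2-DMa counts was not tested.

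H2-DMb2, the other beta chain gene of H2-M (chromosome 17, 34143307 to 34151555, plus strand), was at 4.02, 0.834 and 13.2 CPM in Nf1fl/fl;DhhCre and at 0.159, 0.0822 and 1.25 CPM in double knockout libraries. These rest on 58, 14 and 205 counts and on 2, 1 and 19 counts, and the genotypes overlapped. The log2 fold change was -3.36 with an interval from -7.90 to 1.18 (adjusted p = 0.260 from limma-voom). DESeq2 called H2-DMb2 (adjusted p = 0.00659), and edgeR did not. H2-DMb2 passed the filter mainly through the genotype in which it was high, so nothing is read from this call. H2-DMb1 and H2-DMb2 are near copies, with 87.7% of 1144 aligned transcript bases identical and 27.2% of the 50-base stretches of H2-DMb1 found in H2-DMb2, so that counting may have split or dropped reads between them. With the counts of both genes summed before the fit, the value was -1.07 with an SE of 0.62 and an adjusted p of 0.265 (limma-voom). DESeq2 gave -1.41 for this sum and called it (adjusted p = 0.0332).

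H2-Oa encodes the alpha chain of H2-O, which holds back the loading by H2-M, chiefly in B cells and some dendritic cells. H2-Oa (chromosome 17, 34092340 to 34095234, plus strand) was at 6.10, 1.37 and 6.80 CPM in Nf1fl/fl;DhhCre and at 0.159, 0.0822 and 0.726 CPM in double knockout libraries, on 88, 23 and 106 counts and on 2, 1 and 11 counts. The genotypes did not overlap, but at -3.76 (SE 1.43) its adjusted p was 0.108 from limma-voom. edgeR and DESeq2 called H2-Oa, as did limma-voom without Nf1fl/fl;DhhCre replicate 2. H2-Oa passed the filter mainly through the genotype in which it was high, so nothing is read from these calls. Its partner H2-Ob, the beta chain of H2-O (chromosome 17, 34238903 to 34254414, plus strand), was at 18.6, 9.35 and 44.3 CPM in Nf1fl/fl;DhhCre and at 5.26, 1.15 and 4.69 CPM in double knockout libraries. The groups were apart in H2-Ob as well, with a log2 fold change of -2.62 and an adjusted p of 0.0851 from limma-voom. H2-Ob, like H2-Oa, was called by edgeR, by DESeq2 and by limma-voom without Nf1fl/fl;DhhCre replicate 2.

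The direction did not depend on the libraries included, but the calls did. All 10 genes had a negative log2 fold change in the main fit, in all 7 other tests, scalings and filters, and in all 6 fits that left out 1 library. The 6 calls of limma-voom held in each of the 7 others, where edgeR called 7 of the 10 lower (6.23% of all genes tested) and DESeq2 called 8 (7.9%). The further calls were of H2-Oa by both and of H2-DMb2 by DESeq2. Both genes passed the filter mainly through the genotype in which they were high. Nothing is read from their further calls or from their direction. Without Nf1fl/fl;DhhCre replicate 1, 0 of the 10 were called by limma-voom, although 6 had an unadjusted p below 0.05, as 12.1% of all genes tested did with a lower value, and the calls over all genes went from 2096 to 362, with 1.13% called lower. Without Nf1fl/fl;DhhCre replicate 3, 1 of the 10 was called, against 3.12% of all genes, and without double knockout replicate 2, 1 was, against 2.04%. Without double knockout replicate 1, 2 were called, against 3.59%, and without double knockout replicate 3, 4 were, against 2.96%. Without Nf1fl/fl;DhhCre replicate 2, 7 were called, with H2-Oa among them, against 6.45%. Ctss was called in 5 of these 6 fits, Cd74 in 3, H2-Aa and H2-Ab1 in 2 each, and H2-Eb1 and Ciita in 1 each. Without double knockout replicate 3, the library in which Runx1 was not lower, or without double knockout replicate 2, the members thus kept their direction with fewer calls.

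Levels were also compared with that of Cd74 in the same library. The log2 difference between H2-Aa and Cd74 was -2.08, -2.09 and -2.07 in Nf1fl/fl;DhhCre replicates 1 to 3 and -2.02, -2.16 and -2.05 in double knockout replicates 1 to 3. Thus H2-Aa stayed close to the same share of Cd74 in libraries in which both genes differed many-fold. H2-Ab1 relative to Cd74 changed by -0.08 and H2-Eb1 by 0.15 on the log2 scale, with overlap of the genotypes for both. Relative to Cd74, H2-DMa was at -6.88, -6.33 and -6.90 in Nf1fl/fl;DhhCre and at -4.77, -3.85 and -4.79 in double knockout libraries. H2-DMa was thus higher relative to Cd74 by 2.23 in double knockout libraries without overlap, as H2-DMb1 was by 2.23. H2-DMb2 and H2-Oa, on few counts, differed by -0.44 and -0.81 relative to Cd74, and the genotypes overlapped for both. The two-sided exact permutation p over the 6 libraries was 0.1 for H2-DMa and for H2-DMb1, which is the smallest this design allows. Ciita was higher relative to Cd74 by 0.52 and Ctss lower by 0.57 (a difference of -0.57), again without overlap. These are differences of proportion and do not say which of the genes changed. Cd74 itself had a log2 fold change of -3.06, against a median of 0.015 over all genes tested. A gene that changes little is therefore higher on this scale, and nothing particular to H2-DMa and H2-DMb1 is read from it.

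**Figure D2:**
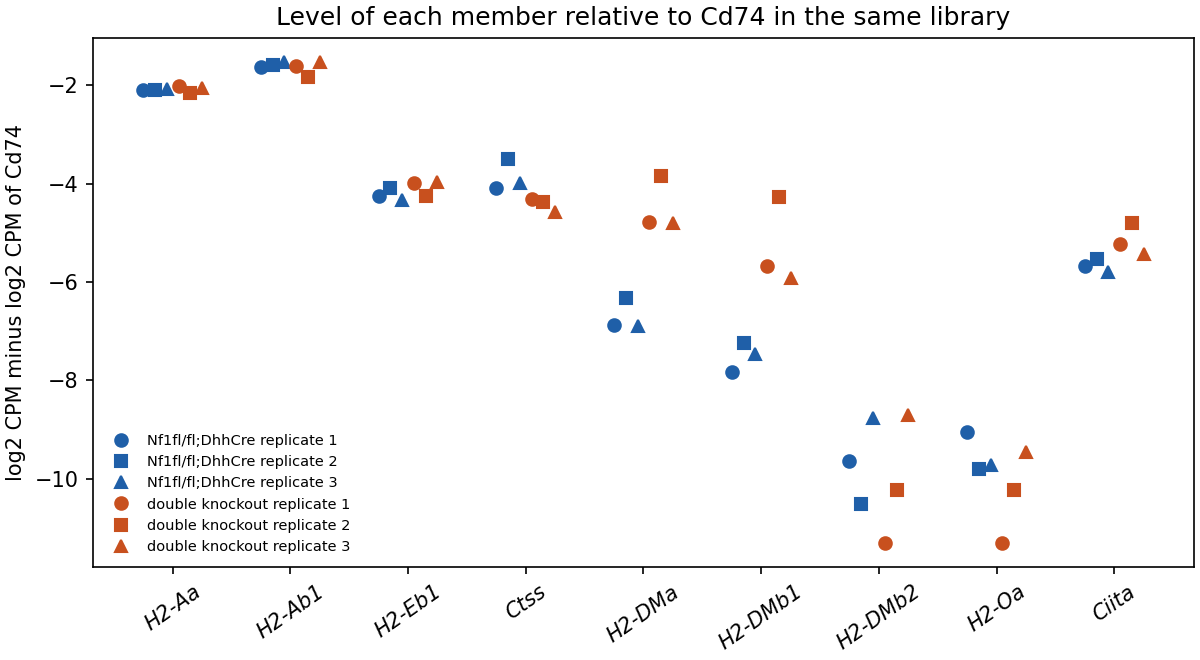
The plot of levels relative to Cd74 gives log2 CPM of each gene minus log2 CPM of Cd74 in the same library, 1 point per library, blue for Nf1fl/fl;DhhCre and orange for double knockout. H2-Aa, H2-Ab1 and H2-Eb1 lie level across the 6 libraries, whereas the orange points of H2-DMa and H2-DMb1 lie above all blue ones, on average by 2.23 for each gene. As Cd74 fell by 3.06 on the log2 scale, a gene that changes little lies higher in orange.

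Promoter sequences are shown because the class II genes share a regulatory module, in which an X box and a Y box are bound by the RFX, CREB and NF-Y proteins that recruit the Ciita protein. The RefSeq promoters of GRCm38.p6 matched 7 of the 10 genes. On both strands of the 250 bases before each start, AACNNATG was searched as part of the X box and GATTGG, the inverted CCAAT box, as the Y box. The letters of AACNNATG were chosen after the promoters of these genes had been seen, so its presence in them is a description. In 25 of the 32851 start sites searched (0.0761%), AACNNATG was followed on the same strand by GATTGG 10 to 30 bases later, while AACNNATG alone was in 7.71% and GATTGG alone in 14.6%. The stretches below are written 5′ to 3′ on the gene's strand, with both matches in capitals.
H2-Eb1, chr17:34305763-34305827, plus strand: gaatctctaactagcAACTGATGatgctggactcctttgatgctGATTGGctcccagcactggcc
H2-DMb2, chr17:34145113-34145178, plus strand: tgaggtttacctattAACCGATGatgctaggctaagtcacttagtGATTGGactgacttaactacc
H2-Ob, chr17:34238805-34238867, plus strand: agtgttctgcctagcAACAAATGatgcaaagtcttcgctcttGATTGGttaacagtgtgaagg
H2-Eb2, chr17:34325530-34325594, plus strand: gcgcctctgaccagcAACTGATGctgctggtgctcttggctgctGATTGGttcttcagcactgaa
The bases between both boxes numbered 21 in H2-Eb1, 22 in H2-DMb2, 19 in H2-Ob and 21 in H2-Eb2.

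H2-DMb1 held the same pair, so that it was present in a gene that was called (H2-Eb1) and in genes that were not. H2-Aa and H2-Oa held GATTGG without AACNNATG, and H2-DMa held GATTGG at 1 of its 2 start sites and the pair at neither. The capitals mark GATTGG in the stretch of H2-Aa. In that of Ctss they mark an interferon-response motif, searched as GAAA followed after 2 bases by a second GAAA.
H2-Aa, chr17:34287852-34287917, minus strand: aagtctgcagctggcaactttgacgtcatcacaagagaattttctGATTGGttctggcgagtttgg
Ctss, chr3:95526735-95526785, plus strand: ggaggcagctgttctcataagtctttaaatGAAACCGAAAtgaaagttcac
This motif was in 2.98% of the start sites searched and in no other member with a matched promoter. TGTGG, the RUNX core motif, was in the windows of H2-DMa, H2-DMb1, H2-Ob and H2-Eb2, and not in those of H2-Aa, H2-Eb1, Ctss, H2-DMb2 and H2-Oa. Of the genes with it, limma-voom called none, H2-Eb2 was not tested, and edgeR and DESeq2 called H2-Ob. Of those without it, limma-voom did not call H2-DMb2 and H2-Oa. TGTGG was in 49.3% of all start sites searched, and nothing on the calls is read from it.

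The DNA-binding partners of Ciita were also examined. Of 7 genes for them (Rfx5, Rfxap and Rfxank of the RFX complex, Nfya, Nfyb and Nfyc of NF-Y, and Creb1) 0 were called by limma-voom, edgeR or DESeq2 in either direction. As limma-voom called 5.36% of all genes tested lower and 8.03% higher, 0 of 7 does not set them apart from other genes. An unadjusted p below 0.05 was found for 3, against 35.2% of all genes tested, and the median log2 fold change was -0.41. Rfx5, the large RFX subunit, was at 52.2, 26.1 and 38.7 CPM in Nf1fl/fl;DhhCre and at 22.8, 20.3 and 22.4 CPM in double knockout libraries. Its log2 fold change of -0.77 did not pass the test (adjusted p = 0.0877 from limma-voom). Creb1 was lower by less than 2-fold, at -0.47 (adjusted p = 0.0397 from limma-voom). Rfx5, Rfxank, Nfya and Creb1 were below every Nf1fl/fl;DhhCre library in each double knockout library, as 20.5% of all genes tested were. Rfxap, Nfyb and Nfyc overlapped.

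Of the interferon gamma axis, which induces Ciita, 2 of 7 genes tested were called lower and 0 higher, against 5.36% of all genes tested called lower. Ifngr1, the ligand-binding chain of the receptor, was at 91.7, 118 and 125 CPM in Nf1fl/fl;DhhCre and at 67.8, 57.3 and 42.4 CPM in double knockout libraries, with a log2 fold change of -1.02 (adjusted p = 0.0197 from limma-voom). Irf8, a transcription factor of myeloid and B cells, was at 27.8, 19.9 and 54.6 CPM and at 4.86, 4.28 and 8.05 CPM, with a log2 fold change of -2.45 (adjusted p = 0.0229 from limma-voom). Neither overlapped between genotypes. With 1 library left out, the call of Ifngr1, which was also lost with edgeR and with sample quality weights, held only without double knockout replicate 1, and that of Irf8 only without Nf1fl/fl;DhhCre replicate 2 or 3. Ifngr2 was at -0.78 (adjusted p = 0.0231), past the p threshold and under the fold threshold. Irf1, a transcription factor that interferon induces, was at -0.72 (adjusted p = 0.0814). Ifng itself was below the filter and at most 0.165 CPM in any library, less than 3 counts make in a library (0.179 to 0.247 CPM).

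Among 11 endolysosomal genes that cut antigen or the invariant chain, or regulate those proteases, 4 were called lower and 0 higher. Over all genes tested 5.36% were called lower, and the median log2 fold change of the 11 was -0.60. Ctsh, cathepsin H, was at 91.3, 58.6 and 152 CPM in Nf1fl/fl;DhhCre and at 22.2, 12.0 and 19.3 CPM in double knockout libraries, a log2 fold change of -2.42 (adjusted p = 0.0140 from limma-voom). Ifi30, the thiol reductase that opens disulfide bonds of antigens, fell by 2.19 on the log2 scale (adjusted p = 0.0287). Ctsk, cathepsin K, fell by 1.81 (adjusted p = 0.0390), and Cst3, the cysteine protease inhibitor cystatin C, by 1.09 (adjusted p = 0.0115). Ctsl, cathepsin L, which cuts the invariant chain in thymic epithelium in place of cathepsin S, had a positive log2 fold change of 0.73 and did not pass the test (adjusted p = 0.0853). Its genotypes did not overlap, at 197 to 268 CPM in Nf1fl/fl;DhhCre and 282 to 533 CPM in double knockout libraries. Ctsb, Ctsd and Lgmn, proteases that most cells hold, lay between -0.50 and 0.02 and were not called. With 1 library left out, the call of Ctsk held only without Nf1fl/fl;DhhCre replicate 3 and that of Ifi30 only without Nf1fl/fl;DhhCre replicate 2, while Ctsh lost its call only without Nf1fl/fl;DhhCre replicate 1 and Cst3 only without Nf1fl/fl;DhhCre replicate 3. Cst3 also lost its call with sample quality weights, where its change was under 2-fold.

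Of 6 genes that act on class II at the cell surface, 1 was called lower, against 5.36% of all genes tested. March1, the ubiquitin ligase that removes class II and Cd86 protein from the surface, was at 34.8, 25.3 and 40.3 CPM in Nf1fl/fl;DhhCre and at 5.90, 1.07 and 5.55 CPM in double knockout libraries, with a log2 fold change of -3.25 (adjusted p = 0.0135 from limma-voom). Its relative March8 was between 49.5 and 56.0 CPM in all 6 libraries, with a log2 fold change of -0.07 (adjusted p = 0.745). Transcripts of March1 thus fell beside those of the class II chains that its protein removes, and this call was lost only without Nf1fl/fl;DhhCre replicate 1. Of 5 genes of costimulation and its inhibition, 3 were called lower, against the same 5.36%. Cd80 and Cd86, the ligands of CD28, were at 25.3 to 28.9 CPM and 15.3 to 31.4 CPM in Nf1fl/fl;DhhCre, and at 0.247 to 2.18 CPM and 2.47 to 4.86 CPM in double knockout libraries. Their log2 fold changes were -4.58 (adjusted p = 0.00931) and -2.75 (adjusted p = 0.0128), and that of Icosl, the ligand of ICOS, was -2.15 (adjusted p = 0.00931), all from limma-voom. Cd80 was thus near the same level in the 3 Nf1fl/fl;DhhCre libraries, in which the class II chains differed several-fold. Cd40 was at -2.33 with overlap (adjusted p = 0.227), and Cd274, the ligand PD-L1, at -0.29 (adjusted p = 0.466). Icosl kept its call whichever library was left out, and Cd86 lost its call only without Nf1fl/fl;DhhCre replicate 1. Cd80 was also called in each of these fits. However, Cd80 held 24, 3 and 33 counts in double knockout replicates 1 to 3. It passed the filter mainly through the genotype in which it was high, so nothing is read from its calls.

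On the side of the CD4+ T cell, the only call by limma-voom among 6 genes tested was Ctla4, and DESeq2 called 3. Over all genes tested limma-voom called 5.36% lower and DESeq2 7.9%. Ctla4, the inhibitory receptor for CD80 and CD86, had 32, 29 and 35 counts in Nf1fl/fl;DhhCre and 0, 2 and 3 counts in double knockout libraries, so that it was tested only through the genotype in which it was high. Nothing is read from its call, which with 1 library left out held only without Nf1fl/fl;DhhCre replicate 2. Cd4, which some mouse dendritic cells also carry, was at 3.05, 3.34 and 23.4 CPM in Nf1fl/fl;DhhCre and at 1.67, 1.4 and 1.58 CPM in double knockout libraries, and was called by DESeq2 but not by limma-voom (adjusted p = 0.248). The excess of Nf1fl/fl;DhhCre replicate 3 in Cd4 was larger than its excess in the class II chains.

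**Figure D3:**
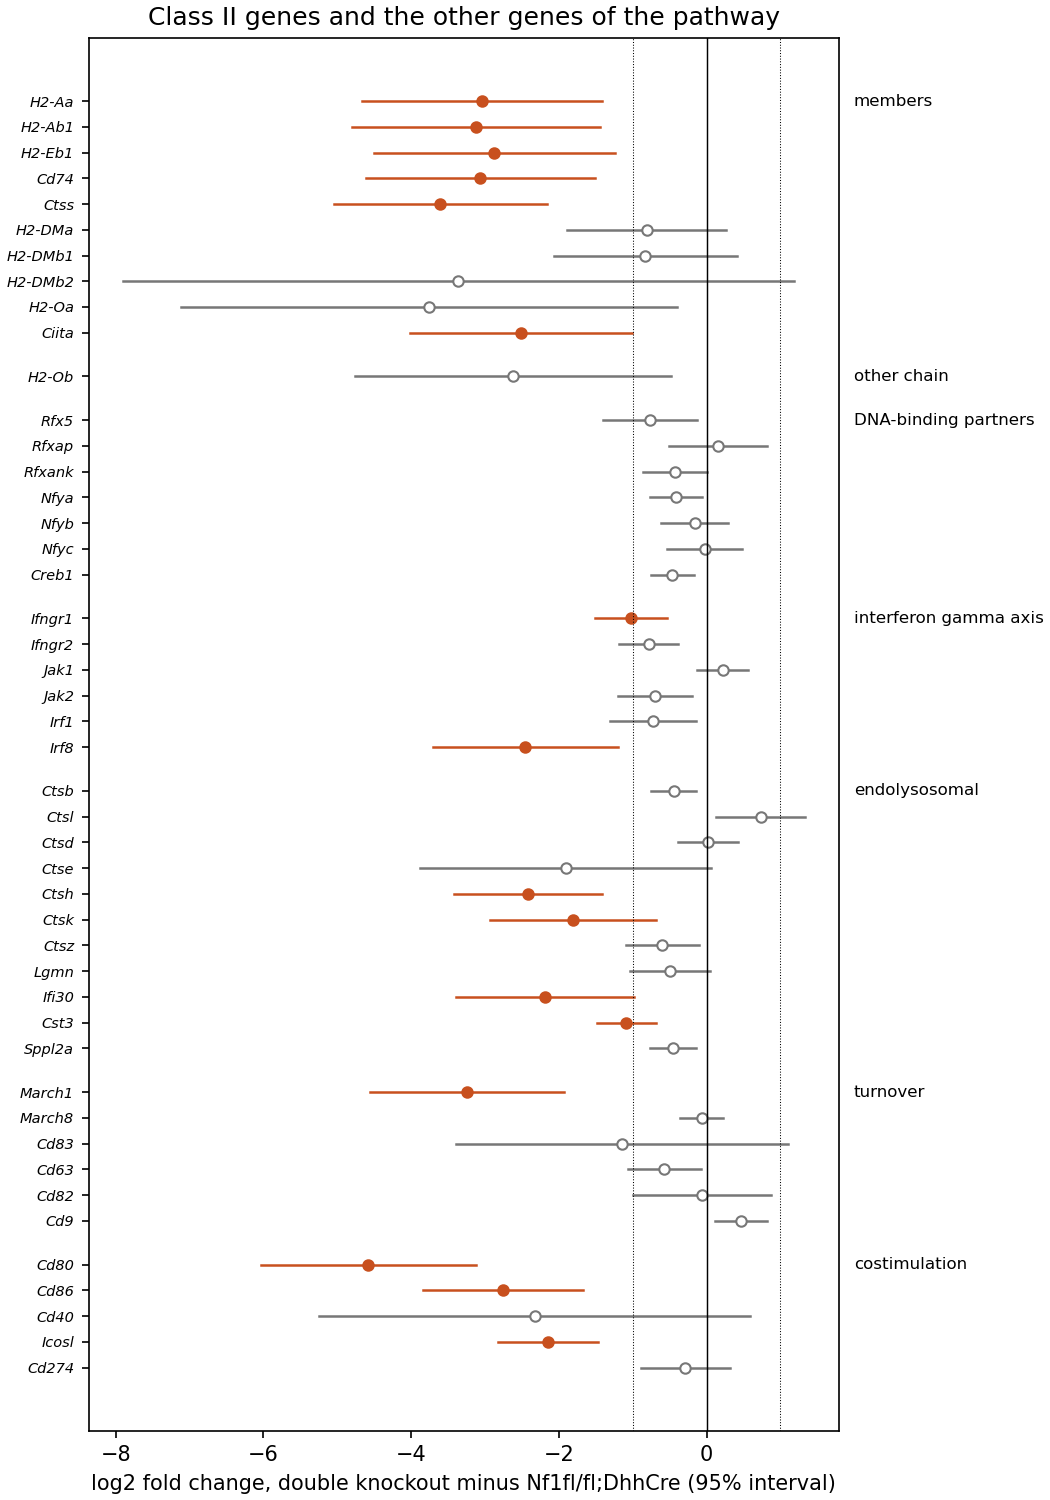
The plot of log2 fold changes gives double knockout minus Nf1fl/fl;DhhCre with 95% intervals for the 10 genes and for reported genes of the same pathway, with filled orange points for genes called and dotted lines at 2-fold. All 10 genes except H2-DMa and H2-DMb1 lie left of the 2-fold line, the DNA-binding partners lie between -0.77 and 0.16, and the intervals of H2-DMa, H2-DMb1 and H2-DMb2 cross 0.

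The 7 members of chromosome 17 lie in the class II region, among other genes. In the order of position H2-Oa comes first, followed by Brd2, H2-DMa, H2-DMb2, H2-DMb1, Psmb9, Tap1, Psmb8 and Tap2, which make and move peptides for class I presentation, then H2-Ob, H2-Ab1, H2-Aa and H2-Eb1. Of 5 neighbours tested that are no class II chain genes, 0 were called by limma-voom, against 5.36% of all genes tested called lower. Brd2 (adjusted p = 0.445) and Tap2 (adjusted p = 0.457) differed by -0.14 and -0.38 on the log2 scale by limma-voom. Psmb9, Tap1 and Psmb8, which interferon induces, were at -2.07, -1.54 and -1.52, with no overlap of the genotypes. Their adjusted p was 0.0646, 0.0769 and 0.0556 from limma-voom. Of the 5 neighbours, edgeR and DESeq2 called 3 each, against 6.23% and 7.9% of all genes tested called lower. An unadjusted p below 0.05 was found for 3 by limma-voom, against 35.2% of all genes tested. H2-DMb2, at -3.36, lies between H2-DMa and H2-DMb1, at -0.81 and -0.83. The interval of H2-DMb2, from -7.90 to 1.18, covers both of these values, so nothing on an order along the region is read from it.

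**Figure D4:**
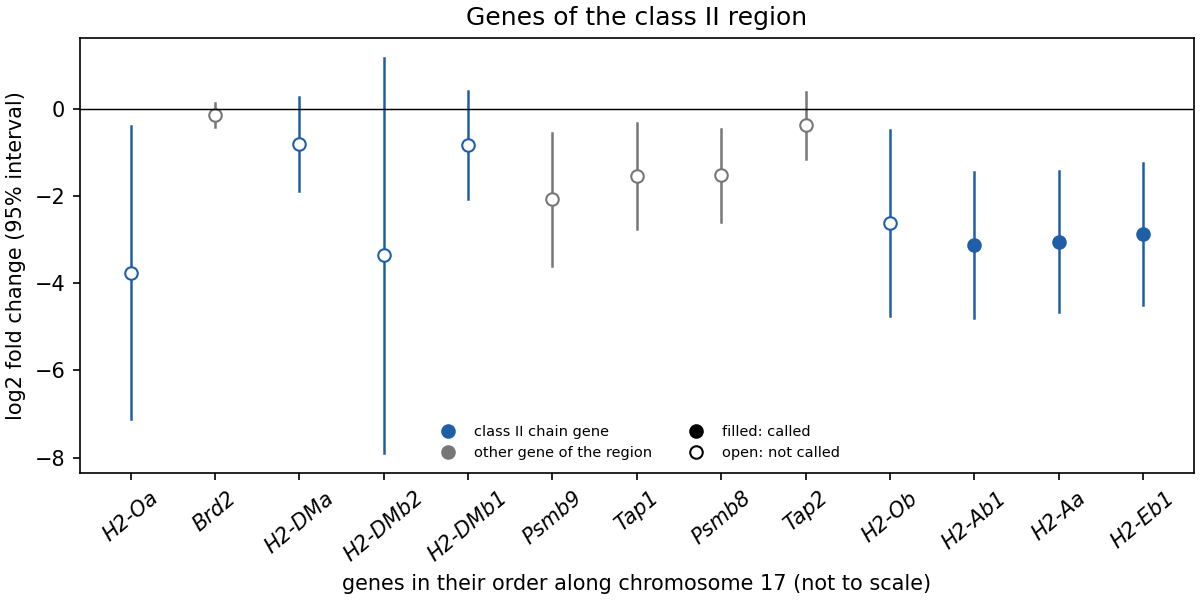
The plot of the class II region shows log2 fold changes (double knockout minus Nf1fl/fl;DhhCre, 95% intervals) of the tested genes in their order along chromosome 17, not to scale, with class II chain genes in blue, other genes in grey and filled points for genes called. The values run from -0.14 for Brd2 to -3.76 for H2-Oa, and the filled points are H2-Ab1, H2-Aa and H2-Eb1.

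Pan-leukocyte and macrophage markers were lower along with these genes, where limma-voom called 5.36% of all genes tested lower. At that share, 0 calls in the short B cell and neutrophil lists do not set them apart from other genes. For the other counts below, edgeR called 6.23% and DESeq2 7.9% of all genes tested lower. By limma-voom 35.2% had an unadjusted p below 0.05 in either direction. The pan-leukocyte list (Ptprc, Coro1a, Laptm5, Cd53, Cd52) summed to 322 to 983 CPM in Nf1fl/fl;DhhCre and to 42.7 to 102 CPM in double knockout libraries, with 4 of 5 genes called lower. The macrophage list summed to 701 to 1345 CPM and to 181 to 376 CPM, with 9 of 12 called lower, among them Csf1r (-2.16) and Mrc1 (-2.05, a mannose receptor). Of the dendritic cell list, 2 of 7 tested were called lower, Clec9a (-2.66, adjusted p = 0.00764) and Flt3 (-1.74, adjusted p = 0.0450), and the sums were 226 to 479 CPM and 51.2 to 83.8 CPM. edgeR and DESeq2 called 4 of these 7 each. With 1 library left out, 1 to 5 were called, where 1.13 to 6.45% of all genes tested were called lower. Clec9a was called whichever library was left out and Flt3 in none of these fits. Itgax, which encodes CD11c, was at 33.2, 11.9 and 69.8 CPM and at 1.04, 0.987 and 3.10 CPM, without overlap. Itgax was not called by limma-voom (adjusted p = 0.0672) but was by edgeR, by DESeq2, with sample quality weights and without Nf1fl/fl;DhhCre replicate 2. Of B cell genes 0 of 5 were called by limma-voom, edgeR or DESeq2, with 0 at an unadjusted p below 0.05, and of T cell genes 0 of 5 were called by limma-voom, 1 by edgeR and 2 by DESeq2, with 1 at an unadjusted p below 0.05. B cell sums were 14.4 to 29.9 CPM in Nf1fl/fl;DhhCre and 14.0 to 14.9 CPM in double knockout libraries and overlapped, and T cell sums were 11.8 to 44.6 CPM and 4.29 to 5.74 CPM and did not. Without Nf1fl/fl;DhhCre replicate 1, 0 of the leukocyte genes and 1 of the macrophage genes were called, against 1.13% of all genes tested called lower. Of neutrophil genes 0 of 4 were called by limma-voom, 1 by edgeR and 1 by DESeq2, with 1 at an unadjusted p below 0.05. The gene called by both was Retnlg, which was lower in double knockout libraries (-2.535 by limma-voom). The log2 fold change was positive for 3 of 4 (median 1.09), and the neutrophil sums of 8.85 to 93.4 CPM and 10.9 to 61.4 CPM overlapped. None of the markers measured was at 0 in all libraries, and Adgre1, Ighm and Trac, which were also on the macrophage, B cell and T cell lists, were not analysed here. The part of these cells in the class II differences was not tested.

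Relative to the mean log2 CPM of the leukocyte list in the same library, Cd74 was at 5.46, 4.92 and 5.58 in Nf1fl/fl;DhhCre and at 5.40, 4.72 and 5.16 in double knockout libraries. Cd74 thus overlapped between genotypes on this scale, with a difference of -0.23, as H2-Aa did with a difference of -0.22. Ctss remained lower without overlap, by a difference of -0.80. H2-DMa and H2-DMb1 were higher relative to leukocyte markers by 2.0 each without overlap, with an exact permutation p of 0.1, the smallest that 3 against 3 libraries can give. The leukocyte list itself had a median log2 fold change of -2.85, against 0.015 over all genes tested. Genes that change little are therefore higher on this scale, and nothing particular to H2-DMa and H2-DMb1 is read from it. Relative to the macrophage list, Cd74 differed by -0.93 with overlap and Ctss by -1.5 without.

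**Figure D5:**
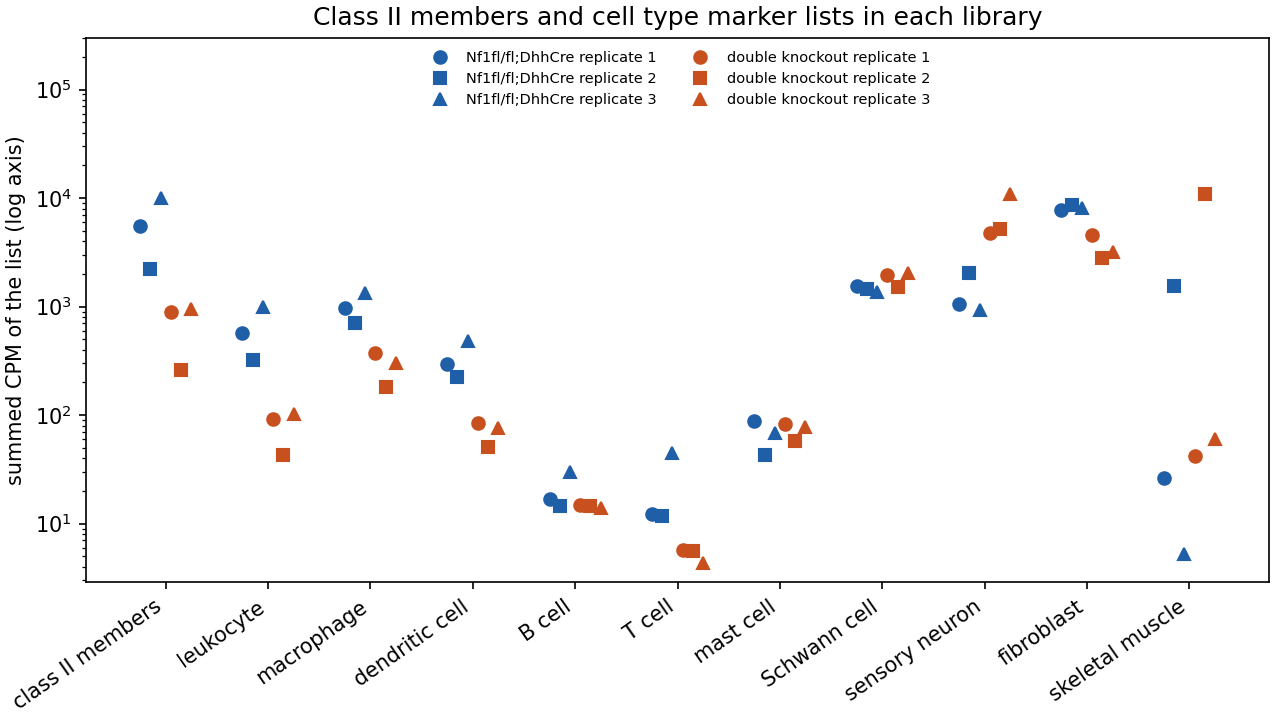
The plot of marker sums gives the summed CPM (log axis) of the 10 class II genes and of each cell type list, 1 point per library, blue for Nf1fl/fl;DhhCre and orange for double knockout. The class II sum ran from 2209 to 9958 CPM in Nf1fl/fl;DhhCre and from 260 to 945 CPM in double knockout libraries, leukocyte, macrophage, dendritic cell, T cell and fibroblast sums lay apart in the same direction, and sensory neuron sums lay apart in the opposite one.

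Other cell types of the tissue differed in other ways. The SC list summed to 1361 to 1554 CPM in Nf1fl/fl;DhhCre and to 1530 to 2051 CPM in double knockout libraries, with Sox10 at 195 to 241 CPM and 200 to 256 CPM. Of 7 SC genes, 2 were called higher, against 8.03% of all genes tested, S100b at 1.52 (adjusted p = 0.00598) and Ngfr at 1.36 (adjusted p = 0.0301, both from limma-voom), and 0 lower. Sensory neuron genes were called higher for 13 of 14, with sums of 933 to 2053 CPM and 4777 to 10830 CPM. Fibroblast genes were called lower for 4 of 5, against 5.36% of all genes tested. Without Nf1fl/fl;DhhCre replicate 1, 0 of the neuron genes and 1 of the fibroblast genes were called. Of the mast cell genes 0 of 6 were called by limma-voom, edgeR or DESeq2, with 2 at an unadjusted p below 0.05, against 35.2% of all genes tested. Of 5 endothelial genes 0 were called by limma-voom or edgeR and 1 by DESeq2, with 2 at an unadjusted p below 0.05, against the same 35.2%. In each genotype all 10 class II genes were lowest in replicate 2, the library of that genotype with the highest skeletal muscle sum. The part of these tissue differences in the class II values was not tested.

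Over the 6 libraries, genes whose level was among the most like the mean log2 CPM of H2-Aa, H2-Ab1, H2-Eb1 and Cd74 were Ptma (Pearson r = 0.998), Cxcl16 (0.997), Frmd4a (0.996) and Gsap (0.995). The points are 6 libraries of 2 genotypes, and 1004 of 10214 genes (9.83%) had an r above 0.9, so that a high r was common in these libraries. Cxcl16, a chemokine of antigen-presenting cells, was at 49.2, 24.1 and 72.1 CPM in Nf1fl/fl;DhhCre and at 12.7, 5.43 and 12.2 CPM in double knockout libraries. Ptma, prothymosin alpha, had the highest r with a log2 fold change of only -0.57. Among the members, r with this mean was 0.987 for Ctss and 0.996 for Ciita, and it was 0.912 for H2-DMa and 0.823 for H2-DMb1.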

How the data were processed

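Bulk RNA of DRG/tumors was amplified by the authors with the NuGEN Ovation kit and made into libraries with Nextera XT. Reads were aligned with TopHat (mm10) and assigned with featureCounts, per the labels. The deposited values are whole-number counts of reads per gene symbol, not normalized. Annotation, strandedness and handling of multiply aligned reads are not given in the sources used here. The replicate numbers follow the order of the labels and pair no mice. Between libraries of 1 genotype the chi-square of the counts, divided by its degrees of freedom, was 21.7 to 133, so none was a copy.

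Counts passed filterByExpr (minimum count 10, total 15) and TMM scaling before limma-voom, in which genotype was the only term (R 4.3.3, edgeR 4.0.16, limma 3.58.1). Log2 levels used a prior count of 0.5, and SEs are moderated. As alternatives, DESeq2 1.42.0, the quasi-likelihood test of edgeR, DESeq2 size factors, library size only, CPM above 1 in at least 3 libraries, no filter, sample quality weights and leaving out each library were tried. Named were all 10 members, genes of the pathway lists, the called or most abundant genes of the marker lists, the floxed genes, and the 5 genes most like the mean of H2-Aa, H2-Ab1, H2-Eb1 and Cd74 at an average of 3 log2 CPM or more. Some genes that meet these rules are not reported here, though counts over lists include them. Positions and exon lengths came from GENCODE M21 and promoters from RefSeq. Figures were drawn with matplotlib 3.10.9. The steps were tested on simulated data. Members and lists were chosen with earlier results of these data known. The limit for a count of 3 (0.179 to 0.247 CPM) covers counting error only.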

Additional observations from a re-analysis of the deposited data

How the results depend on the processing

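All 10 class II genes had a negative log2 fold change under the 13 alternatives. Of their values, 104 stayed on the same side of the call rule, 22 lost a call and 4 gained one. All calls gained were of H2-Oa or H2-DMb2, and nothing is read from them. With 1 library left out, the members called lower numbered 0 to 7 (6 with all libraries) and the genes called 362 to 2285 (2096 with all libraries), both lowest without Nf1fl/fl;DhhCre replicate 1. The sum of H2-DMb1 and H2-DMb2 was called by DESeq2 at -1.41. Without Nf1fl/fl;DhhCre replicate 3 this sum was at -0.421 (adjusted p = 0.468 from limma-voom). Besides the members, 8 genes that were never called changed the sign of their log2 fold change. Nfyc was at 0.011 with edgeR, 0.002 with DESeq2 and 0.099 with quality weights, and Ctsd at -0.054 with library size only. With 1 library left out, Rfxap ran from -0.024 to 0.322, Nfyb from -0.251 to 0.027, Nfyc from -0.187 to 0.165, Ctsd from -0.092 to 0.186, March8 from -0.076 to 0.022, Cd82 from -0.329 to 0.347, Cd274 from -0.456 to 0.001 and Nf1 from -0.181 to 0.043. The cause was not tested. No paired analysis was possible because the labels give no replicate numbers. Depth limits H2-DMb2 and H2-Oa, with 1 to 19 counts in double knockout libraries.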
